A study of Homo sapiens with 4 samples.

Results

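AMACR and 8 further genes of peroxisomal fatty acid oxidation were followed through RNA-seq count tables of VCaP cells, an established human prostate cancer line that carries a TMPRSS2-ERG fusion. The 9 members (AMACR, ACOX3, HSD17B4, EHHADH, ACAA1, SCP2, DECR2, ABCD3 and PECR) are pathway genes taken by symbol. They were chosen with earlier results of these data known. All 9 were found among the 60308 gene identifiers of each table. Cells were transfected with an siRNA against ZBTB7A (siZBTB7A) or with a non-targeting control siRNA (siNTC), both in DMEM with 10% serum, to find genes that change when ZBTB7A, a repressor with zinc fingers, is depleted. Each group had 2 tables, numbered 1 and 2. The number of siRNA sequences and the time after transfection are not given in the sources used here, and a single cell line was used.

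Peroxisomes shorten fatty acids that mitochondria handle poorly, among them very long and branched chains and bile acid precursors. An ABC transporter imports the acyl-CoA, a racemase brings branched chains to the stereoisomer that can be oxidised, and an oxidase, a multifunctional enzyme and a thiolase then act in turn on each cycle. AMACR, the alpha-methylacyl-CoA racemase of this route, is a widely used tissue marker of prostate cancer.

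The tables held between 5556061 and 5927656 reads counted in genes on the main strand. The 2 tables of a group did not differ beyond the noise of read sampling, with a chi-square per degree of freedom of 0.995 in siZBTB7A and 0.993 in siNTC, against 3.50 to 3.64 between tables of different groups. They were therefore counted as 1 library, so the comparison rests on 1 library per group and has no replicate check. A gene is called higher or lower where edgeR's quasi-likelihood test gave a Benjamini-Hochberg adjusted p under 0.05 over all 12848 genes tested, and such a call compares these 2 libraries, not the 2 treatments. Mitochondrial genes took 20.2% of gene reads in both siZBTB7A tables and 17.1% in both siNTC tables, and the part of such differences in the results was not tested. ZBTB7A itself had 70 and 74 reads in the siZBTB7A tables and 90 and 115 in the siNTC tables, a fold of 0.743 (95% counting interval 0.596 to 0.924) that was not called in edgeR's quasi-likelihood test (adjusted p = 0.0969). All directions below are therefore those of the library labelled siZBTB7A.

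AMACR was the only member called, and it was higher in the siZBTB7A library. It had 99 and 113 reads in the siZBTB7A tables, against 81 and 79 in the siNTC tables. As CPM, the reads scaled to the TMM-adjusted gene reads of each table, this was 18.1 and 19.99 CPM in the siZBTB7A tables and 14.0 and 13.2 CPM in the siNTC tables. Both siZBTB7A tables lay above both siNTC tables. The summed tables gave a fold of 1.40 with an exact 95% interval of 1.14 to 1.73, which covers counting error only. The log2 fold was 0.49 in edgeR's quasi-likelihood test, with an adjusted p of 0.0357. The call rests on 212 and 160 reads and was lost without either siZBTB7A table or either siNTC table, where the log2 fold was 0.41 to 0.56 and the edgeR adjusted p 0.0739 to 0.298. It was also lost in edgeR's quasi-likelihood test with no filter on low counts (adjusted p = 0.0510) and with an assumed replicate CV of 10% (adjusted p = 1).

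**Figure D1:**
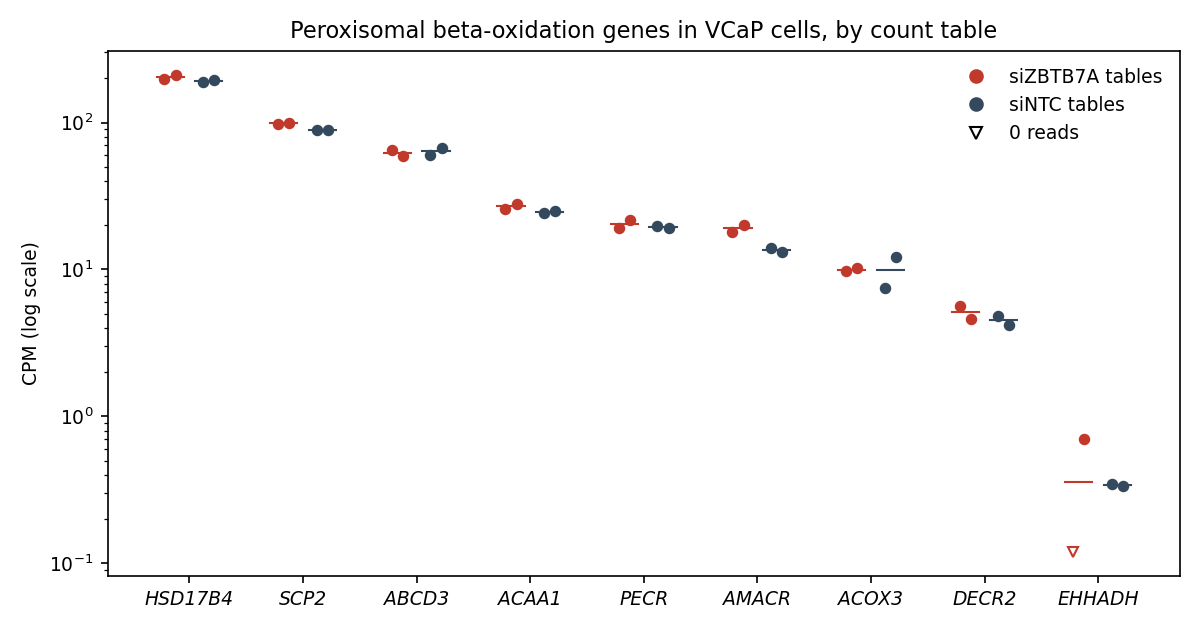
CPM of each member (vertical axis, log scale) in the 2 siZBTB7A tables (red, left) and the 2 siNTC tables (dark, right), with a line at the value of the summed tables and an open triangle for 0 reads. HSD17B4 lies highest near 200 CPM and EHHADH lowest under 1 CPM, and for AMACR both siZBTB7A points, at 18.1 and 19.99 CPM, lie above both siNTC points.

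By the exons of GENCODE 29, most exonic bases of AMACR could not give it a read. There, 3135 of its 4838 exonic bases (64.8%) are shared on the same strand with the readthrough gene C1QTNF3-AMACR or a pseudogene. The tables' layout leaves out reads that touch more than 1 gene. The annotation used for the counting is not stated, so its exons may differ. If the exons were the same, the AMACR count stands for 1703 bases and understates the gene. C1QTNF3-AMACR itself held 0 and 3 reads in the siZBTB7A tables and 2 and 3 in the siNTC tables, too few to test. No other member shared more than 15.4% of its exonic bases in this way. ACAA1 overlaps DLEC1 on the opposite strand over 19.7% of its exonic bases, and the stranded count keeps its reads apart from that gene. Over the 9 members, opposite-strand reads came to 5 beside 4986 main-strand reads in siZBTB7A and to 15 beside 4903 in siNTC.

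Promoter windows in the RefSeq table (build GRCh38.p14, 250 bases before to 50 after a start) were matched for 6 of the 9 members, in 8 windows. EHHADH, ACAA1 and DECR2 had no entry. Below are AMACR, as the member called, HSD17B4, as the most abundant member, and ABCD3, as the tested member with a log2 fold below 0, so that their upstream sequence can be compared. Letters run 5′ to 3′ along each gene's strand, and capitals mark a GC box (GGGCGG) or a CCAAT box (CCAAT) on either strand.
AMACR, chr5:34008001-34008300, minus strand: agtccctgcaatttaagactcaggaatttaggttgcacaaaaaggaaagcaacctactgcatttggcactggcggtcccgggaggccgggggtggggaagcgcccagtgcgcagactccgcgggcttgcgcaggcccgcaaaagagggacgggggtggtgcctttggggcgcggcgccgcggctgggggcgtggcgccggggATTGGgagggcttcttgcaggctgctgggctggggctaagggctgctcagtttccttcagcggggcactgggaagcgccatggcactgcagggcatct
HSD17B4, chr5:119452247-119452546, plus strand: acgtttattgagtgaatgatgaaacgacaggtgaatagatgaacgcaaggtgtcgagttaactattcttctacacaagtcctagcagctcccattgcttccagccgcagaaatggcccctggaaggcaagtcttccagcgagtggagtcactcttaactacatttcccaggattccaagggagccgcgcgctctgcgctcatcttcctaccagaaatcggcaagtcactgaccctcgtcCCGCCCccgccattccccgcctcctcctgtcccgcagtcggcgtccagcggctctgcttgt
ABCD3, chr1:94418139-94418438, plus strand: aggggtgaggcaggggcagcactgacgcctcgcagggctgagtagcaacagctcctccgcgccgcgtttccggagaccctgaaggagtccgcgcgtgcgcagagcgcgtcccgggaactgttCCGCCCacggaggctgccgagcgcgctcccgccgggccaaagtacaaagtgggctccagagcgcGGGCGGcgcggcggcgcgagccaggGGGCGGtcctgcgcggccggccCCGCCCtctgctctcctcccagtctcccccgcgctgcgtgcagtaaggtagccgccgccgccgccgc
The AMACR window held 1 CCAAT box, beginning at base -48 from the start, and no GC box (0 matches). HSD17B4 held 1 GC box and ABCD3 held 4, and neither held a CCAAT box. Neither trait of the AMACR window was particular to it among the members. PECR, not called, also held 1 CCAAT box, at base -212, and the second window of SCP2, not called, also held no GC box. GC boxes occurred in 45.0% and CCAAT boxes in 34.6% of all 35116 windows of this length. The AMACR window was 65.7% GC, HSD17B4 55.3% and ABCD3 75.0%, beside a median of 58.7% over all windows. CCTTCCCC, the core of a C-rich site known to be bound by ZBTB7A, and AGGTCA, the half-site of nuclear receptors such as the PPARs, were also searched on both strands. Neither was present in any of the 8 member windows, and they occurred in 5.84% and 13.8% of all windows. A match or its absence here describes letters in a short window and says nothing of binding.

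The import step did not differ between the libraries beyond counting error. ABCD3, the peroxisomal membrane ABC transporter also called PMP70, had 65.1 and 59.6 CPM in the siZBTB7A tables and 60.5 and 66.9 CPM in the siNTC tables. The tables of the groups overlapped. Its fold was 0.978 with an interval of 0.881 to 1.09, and it was the only tested member with a log2 fold below 0.

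The oxidase step was thinly counted among the members. ACOX3, an acyl-CoA oxidase for branched chains, had 9.69 and 10.3 CPM in the siZBTB7A tables and 7.43 and 12.2 CPM in the siNTC tables. The siNTC tables lay on either side of the siZBTB7A tables, from 43 and 73 reads. The fold was 1.01, with an interval of 0.774 to 1.33, and it was not called. Its log2 fold was 0.02, with -0.29 without the first siNTC table and 0.43 without the second.

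The multifunctional enzymes were counted at very unlike depths, and neither was called in edgeR's quasi-likelihood test on the unadjusted counts. HSD17B4, the D-specific multifunctional enzyme, which also handles the products of AMACR, had 198 and 212 CPM in the siZBTB7A tables and 189 and 194 CPM in the siNTC tables. The groups did not overlap, but the fold was only 1.07 (1.01 to 1.14), and the gene was not called in edgeR's quasi-likelihood test (adjusted p = 0.181). With a correction of the folds for transcript GC content and length its log2 fold was 0.16 instead of 0.10, and it was then called higher (edgeR adjusted p = 0.0167), where 2.86% of all tested genes were called. EHHADH, the L-specific counterpart, was barely counted, with 0 and 4 reads in the siZBTB7A tables and 2 and 2 in the siNTC tables. It did not pass the filter on low counts, and the ratio of 1.06 with an interval of 0.197 to 5.68 leaves its difference undetermined at this depth.

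The genes that encode thiolases, SCP2 and ACAA1, were not called. SCP2, whose gene encodes both the thiolase SCPx and sterol carrier protein 2, which a count per gene does not separate, had 97.8 and 99.97 CPM in the siZBTB7A tables and 88.3 and 89.1 CPM in the siNTC tables. The groups did not overlap, and the fold of 1.12 (1.02 to 1.21) did not pass edgeR's quasi-likelihood test (adjusted p = 0.130). ACAA1, the thiolase for straight chains, had 26.0 and 28.0 CPM in the siZBTB7A tables and 24.4 and 25.1 CPM in the siNTC tables. Its groups did not overlap either, and its fold of 1.09 had an interval of 0.925 to 1.29.

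The auxiliary reductases were not called. DECR2, the peroxisomal 2,4-dienoyl-CoA reductase for unsaturated chains, had 5.67 and 4.60 CPM in the siZBTB7A tables and 4.84 and 4.18 CPM in the siNTC tables. Its fold of 1.14 came from 57 and 53 reads and had an interval of 0.769 to 1.69. PECR, the peroxisomal trans-2-enoyl-CoA reductase, had 19.2 and 21.6 CPM in the siZBTB7A tables and 19.9 and 19.1 CPM in the siNTC tables, a fold of 1.05 (0.869 to 1.27). The tables of the groups overlapped for both genes.

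Of the 8 members tested, 1 was called higher and 0 lower, where 4.97% of all tested genes were called, 2.25% as higher and 2.72% as lower. These were 289 higher and 350 lower genes, against 209 higher and 159 lower with the GC and length correction. With 8 genes this single call is not a result about the list. The list was chosen with earlier results of these data known, so the shares given here are no test of it. DESeq2 gave an adjusted p to 3 of the 8 members and called 0 of these, and in edgeR's quasi-likelihood test 3 of the 8 (AMACR, HSD17B4 and SCP2) had an unadjusted p under 0.05, where 17.9% of all tested genes did. The groups' tables did not overlap for 4 members, all higher in siZBTB7A, where 46.9% of all tested genes had non-overlapping tables and 23.5% had them in that direction. The log2 fold was above 0 in 7 of the 8, where this held for 50.2% of all tested genes. The median log2 fold of the 8 was 0.11, beside 0.00080 over all tested genes. The summed level of the 9 members was 440.0 and 456.5 CPM in the siZBTB7A tables and 408.8 and 424.3 CPM in the siNTC tables, of which HSD17B4 and SCP2 made up the larger part.

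**Figure D2:**
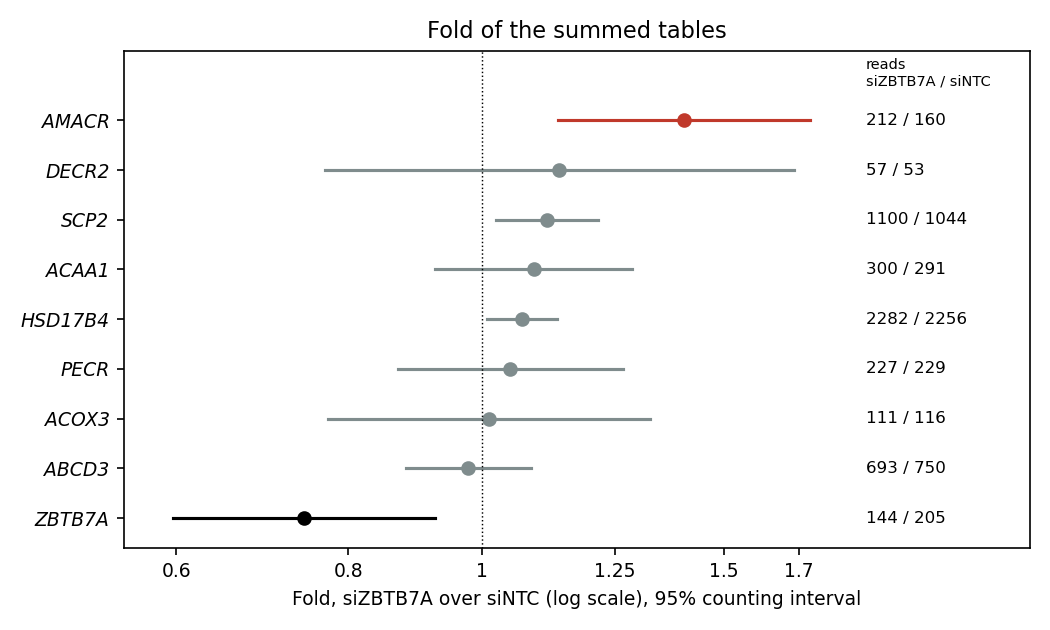
Fold of siZBTB7A over siNTC from the summed tables (horizontal axis, log scale) with the 95% counting interval for each tested member and for ZBTB7A, and the reads behind each value at the right. AMACR (red, 1.40) has the highest fold, and the intervals of 5 of the 8 members include 1.

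**Figure D3:**
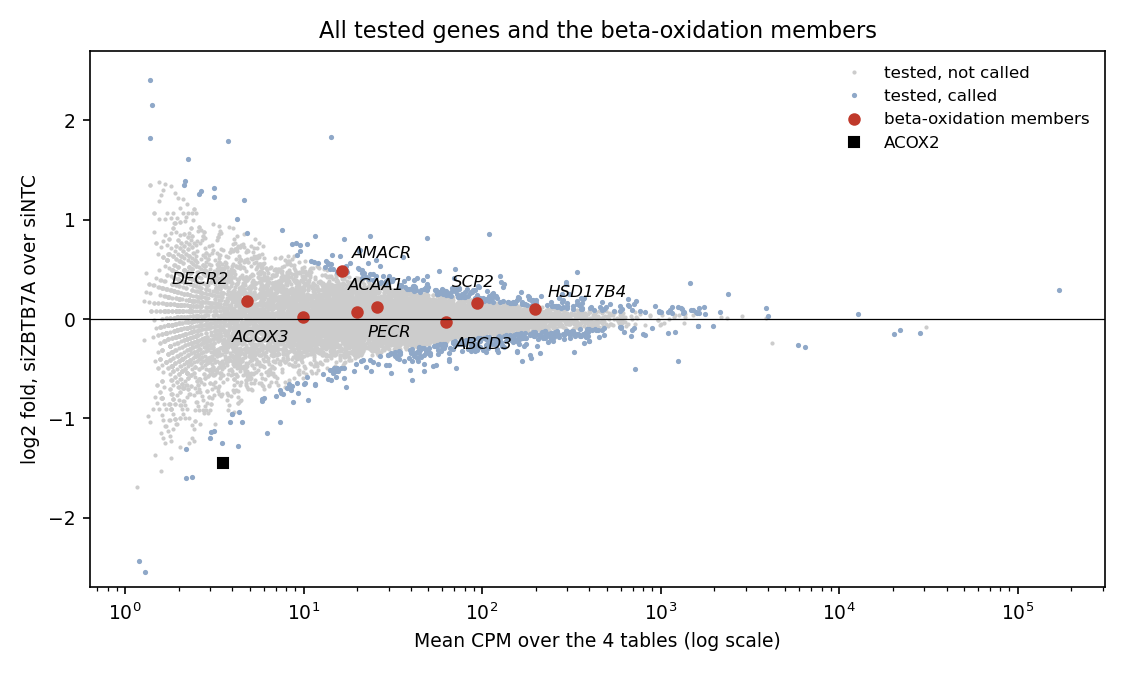
The log2 fold of siZBTB7A over siNTC (vertical axis) against mean CPM (horizontal axis, log scale) for all 12848 tested genes, with called genes in blue, the tested members in red and ACOX2 as a black square. The members other than AMACR lie between -0.03 and 0.19, among the genes that were not called.

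Per length, HSD17B4 was the highest of the 9 members and EHHADH the lowest in both libraries. Levels were taken as CPM per kilobase of exonic sequence not shared with another gene on the same strand, with exact 95% counting intervals. HSD17B4 stood at 19.6 in siZBTB7A and 18.3 in siNTC, and SCP2 at 14.1 in siZBTB7A and 12.6 in siNTC. AMACR stood at 11.2 (9.74 to 12.8) in siZBTB7A and at 7.98 (6.80 to 9.32) in siNTC. ABCD3 stood at 8.21 (7.61 to 8.85) in siZBTB7A and at 8.40 (7.81 to 9.02) in siNTC, so AMACR was the third in siZBTB7A, with an interval clear of ABCD3, and the fourth in siNTC, where the intervals overlapped. PECR, at 6.70 in siZBTB7A and 6.39 in siNTC, had an interval overlapping that of AMACR only in siNTC, and in siZBTB7A its interval (5.86 to 7.64) reached that of ABCD3. ACAA1 stood at 3.85 in siZBTB7A and 3.53 in siNTC, and ACOX3 at 2.60 in siZBTB7A and 2.56 in siNTC. DECR2 stood at 1.48 in siZBTB7A and 1.30 in siNTC, and EHHADH at 0.077 in siZBTB7A and 0.072 in siNTC. From PECR down to EHHADH the intervals of neighbours did not overlap in either library. Counted over the longest transcript instead, a length chosen after the data were seen, ABCD3 at 14.3 stood above AMACR at 12.8 in siZBTB7A. In siNTC, ABCD3 at 14.6 and PECR at 10.5 both stood above AMACR at 9.11, so the place of AMACR among these neighbours depends on the transcript assumed.

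**Figure D4:**
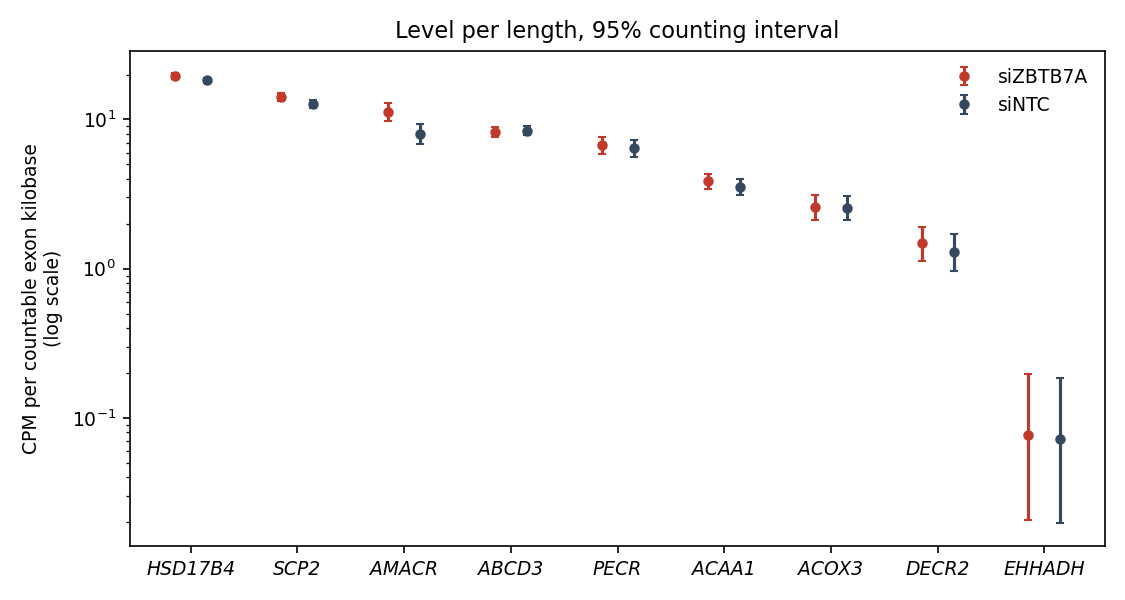
CPM per kilobase of countable exonic sequence (vertical axis, log scale) for each member in siZBTB7A (red, left) and siNTC (dark, right), with 95% counting intervals. Levels run from 19.6 for HSD17B4 to 0.077 for EHHADH in siZBTB7A, and AMACR lies at 11.2 in siZBTB7A and 7.98 in siNTC.

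Among the other genes of peroxisomal beta-oxidation and export, 14 of 16 were tested, and 0 were called higher and 2 lower. Over all tested genes, 2.25% were called higher and 2.72% lower. The median log2 fold of the 14 was -0.04, with 7 genes above 0 and 7 below. In edgeR's quasi-likelihood test 4 of the 14 had an unadjusted p under 0.05, beside 17.9% of all tested genes. These were the 2 called genes and, not called, SLC27A2, which activates very long chains, at a fold of 1.23 (1.07 to 1.42) and the CoA hydrolase gene NUDT19 at 1.21 (1.07 to 1.37), both named after their values were seen. ACOX2, the oxidase for branched chains and bile acid precursors, had 11 and 10 reads in the siZBTB7A tables and 27 and 34 in the siNTC tables. This was 2.01 and 1.77 CPM in the siZBTB7A tables and 4.67 and 5.68 CPM in the siNTC tables, with no overlap. The fold was 0.364 (0.211 to 0.607) and the log2 fold -1.45 (edgeR's quasi-likelihood test, adjusted p = 0.00213). Without the second siZBTB7A table or the second siNTC table it was no longer called, with log2 folds of -1.36 and -1.29 and edgeR adjusted p of 0.0550 and 0.0853. CROT, which attaches carnitine to shortened chains for export, had 222 and 225 reads in the siZBTB7A tables and 307 and 269 in the siNTC tables, a fold of 0.821 (0.724 to 0.931). Its edgeR adjusted p was 0.0478, and the call was lost without the first siNTC table or either siZBTB7A table (adjusted p = 0.148 to 0.531). It passed in 6 of 14 alternatives, and once GC content and length were corrected for its log2 fold was -0.25 instead of -0.28 and its edgeR adjusted p 0.121. LONP2, a peroxisomal protease, was among the most abundant of this list and was not called, at a fold of 0.942 (0.876 to 1.01).

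The remaining peroxisomal and mitochondrial lists held no called gene in edgeR's quasi-likelihood test, where 4.97% of all tested genes were called. Among other peroxisomal enzymes and membrane proteins, 20 of 28 were tested and 0 called, with 4 at an unadjusted p under 0.05, beside 17.9% of all tested genes, and a median log2 fold of 0.00030. The antioxidant enzyme gene PRDX5 was at a fold of 1.03 (0.991 to 1.07), and IDH1, a dehydrogenase of cytosol and peroxisome, at 0.980 (0.941 to 1.02). All 16 peroxins, the proteins that build peroxisomes and import their enzymes, were tested and 0 were called. At an unadjusted p under 0.05 there were 0, beside the same 17.9%, and the median log2 fold was 0.01. PEX10 was at 1.03 (0.946 to 1.11) and PEX26 at 1.03 (0.938 to 1.14). Of 23 mitochondrial beta-oxidation genes, 21 were tested and 0 called, with 2 of the 21 at an unadjusted p under 0.05, beside the same 17.9%, and a median log2 fold of 0.0031. HADHA, a subunit of the mitochondrial trifunctional protein, was at 0.976 (0.917 to 1.04), and ETFA, which takes up electrons from the dehydrogenases, at 1.02 (0.954 to 1.10). Of 7 PPAR, RXR and coactivator genes that regulate the pathway, 5 were tested and 0 called. None had an unadjusted p under 0.05, beside the same 17.9%. These 5 all had a log2 fold below 0, where 50.2% of all tested genes had one above 0. Their median log2 fold was -0.11, and -0.17 with the GC and length correction. RXRA and RXRB were at a fold of 0.966 (0.872 to 1.07) and 0.925 (0.841 to 1.02).

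**Figure D5:**
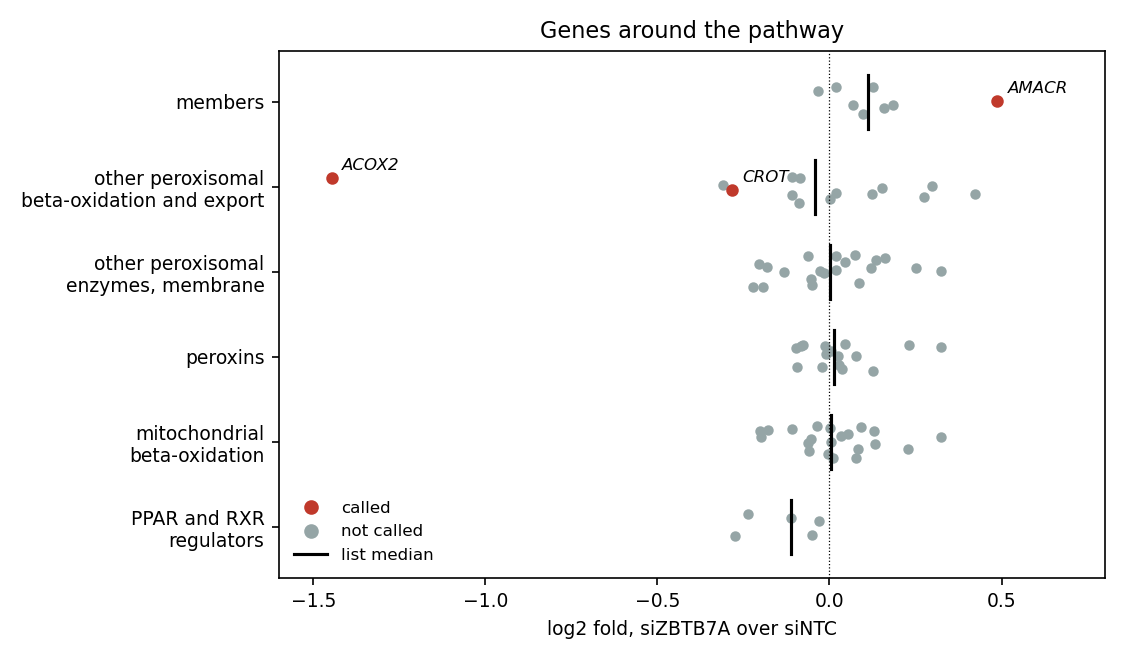
The log2 fold of siZBTB7A over siNTC (horizontal axis) for each tested gene of the members and of 5 further lists (rows, members at the top), with called genes in red and the list median as a black bar. AMACR is the only called gene on the higher side, and ACOX2 and CROT are the only called genes on the lower side.

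Luminal prostate markers were checked because AMACR marks prostate tumour cells. ERG, a gene of this line's TMPRSS2-ERG fusion, was counted with them and is not itself a luminal marker. All 8 (KLK2, KLK3, HOXB13, FOLH1, SLC45A3, KRT8, KRT18 and ERG) were expressed and tested, and their summed level was 5758 and 5747 CPM in the siZBTB7A tables and 5524 and 5479 CPM in the siNTC tables. Of these 4 (KLK2, HOXB13, FOLH1 and SLC45A3) were called higher and 0 lower, where 2.25% of all tested genes were called higher and 2.72% lower. Those shares cover genes of all depths, and at high depth a small fold can be called. KLK2 was called at a fold of 1.02 (1.01 to 1.04), from 44738 reads in siZBTB7A and 46253 in siNTC. The part of depth in these 4 calls was not tested. KLK2 and HOXB13 lost the call once GC content and length were corrected for (edgeR adjusted p = 0.915 and 0.267). This left 2 of the 8 called, where 2.86% of all tested genes were called with the correction. With that correction the log2 fold of KLK2 was -0.0021 instead of 0.034. The 8 had a median log2 fold of 0.14, and of 0.087 once corrected, and their part in the AMACR result was not tested. Markers of basal, leukocyte and endothelial cells were near 0, and of the fibroblast markers LUM was not. The 4 basal markers summed to 10 and 8 reads in the siZBTB7A tables and 9 and 12 in the siNTC tables, with KRT5 at 0. The 6 leukocyte and endothelial markers matched summed to 5 and 5 reads in siZBTB7A and 3 and 3 in siNTC, with CD3E and CDH5 among those at 0. CD68 shares 81.7% of its exonic bases on the same strand with another gene, so its 1 read in each library says little of its level. The 5 fibroblast markers summed to 73 and 87 reads in siZBTB7A and 106 and 95 in siNTC, nearly all of them from LUM (144 in siZBTB7A and 178 in siNTC, a mean of 14.0 CPM), with COL1A2 at 0. LUM was tested and not called, at a fold of 0.856 (0.682 to 1.07), and its part in the results was not tested. In bulk RNA, fewer cells of a type and less RNA per cell cannot be told apart.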

How the data were processed

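Whole-number read counts per gene were deposited by the authors for 4 tables, with no normalization, in the layout of STAR gene counts. The submitters' processing notes name STAR 2.4.2a and 2 names of one build, hg19 and GRCh37, and the labels' protocols a stranded total RNA kit. Which annotation was used is not stated in these sources. Main-strand counts (the last column) were used, and they exceeded opposite-strand counts by 24.9 to 25.5 times. Rows that name no gene held 50.8% to 51.2% of reads and were left out. Symbols and exon overlaps came from GENCODE 29 by Ensembl number (55698 of 60308 named), which is on another build, so gene coordinates are not given. RefSeq promoter windows carry their own build.

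edgeR 4.0.16 (R 4.3.3) was run on all 4 tables with TMM, filterByExpr, group as the only term, a robust quasi-likelihood test and Benjamini-Hochberg adjustment over all tested genes. The code was tested on simulated data. Folds used summed tables with exact (Clopper-Pearson) 95% intervals. The labels do not name separate cultures, so p-values measure only the spread between tables, which may be technical. Reads carry no molecular identifiers, so intervals cover counting error only. Alternatives were DESeq2 1.42.0, its size factors, limma-voom (limma 3.58.1), other filters, unstranded counts, coding genes, a replicate block, each table left out, a GC and length spline, an exact binomial test and an assumed replicate CV of 10%.

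Named genes were all members, ZBTB7A and, of each of the 5 further lists, every called gene and the 2 most abundant, of which 1 is not reported here. No likeness ranking was made, since 2 groups give no pattern to rank. The members and lists were chosen with earlier results of these data known. All 99 list entries were matched, and 1 marker, PECAM1, was not.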

Additional observations from a re-analysis of the deposited data

Results flagged for a closer look

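Reads that met no annotated exon (main strand), which enter no comparison of the report, took 23.13% and 23.17% of all reads in the siZBTB7A tables, above the 20.58% and 20.61% in the siNTC tables. Reads mapping to several places went the other way, at 22.27% and 22.21% in the siZBTB7A tables and 24.46% and 24.38% in the siNTC tables. All rows that name no gene together held 51.2% in both siZBTB7A tables and 50.9% and 50.8% in the siNTC tables. With 1 library per group these differences have no replicate check. Whether any reads at no annotated exon come from the loci of the pathway was not tested.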

How the results depend on the processing

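The call of 639 genes stayed within 1.5 times under 8 alternatives and moved under DESeq2 (89), the GC and length correction (368), an assumed replicate CV of 10% (1) and leaving out a table (303 to 373). Of the members, 1 was called in edgeR's quasi-likelihood test, 2 with the GC and length correction, 0 with no filter, 0 with the assumed CV and 0 (in each case) without a table. AMACR kept its direction in all 14 alternatives that gave an adjusted p, with log2 folds of 0.41 to 0.56, and was called in 8 of them. ACOX2 was called in 11 of 14 and CROT in 6 of 14, both lower throughout. DESeq2 gave no adjusted p to AMACR, ACOX2 or CROT. It gave none to 8967 of the 12848 genes tested, so its 89 calls come from fewer genes than the 639. With fewer tables there are fewer reads, and for the other losses the cause was not tested. Log2 folds near 0 changed sign with the correction for ACOX3 (-0.026), ABCD3 (0.016), PRDX5 (-0.016) and PEX10 (-0.026, and -0.054 unstranded). Leaving out a table gave ranges across 0 for ACOX3 (-0.29 to 0.43), ABCD3 (-0.11 to 0.044), PECR (-0.020 to 0.15), PEX26 (-0.041 to 0.13), HADHA (-0.10 to 0.034) and RXRA (-0.11 to 0.0015). None of these genes was called there. The replicate block called 654 genes and 1 member, AMACR (log2 fold 0.49), and changed no other call of the genes named. Tables with the same number deviated from their group means with a correlation of -0.0093 (8974 genes). The tables of a group differ only by sampling noise, so this correlation cannot show whether same-numbered tables were paired. Among the members depth limits ACOX3, DECR2 and EHHADH most, at 116 reads or fewer a library.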

Other observations

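NUDT7, a peroxisomal enzyme that hydrolyses CoA and its derivatives, was singled out after its values were seen. It had 1 read over both siZBTB7A tables and 12 over both siNTC tables, a ratio of 0.0882 with a 95% counting interval of 0.00206 to 0.596, and did not pass the filter on low counts. ACOT4, a peroxisomal thioesterase gene, had the highest log2 fold among the tested genes of the non-member pathway lists, at 0.42 from 71 reads in siZBTB7A and 56 in siNTC, and was not called (edgeR quasi-likelihood test, adjusted p = 0.392).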
